A study of Drosophila melanogaster with 12 samples.

Results

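The piRNAs bound to Ago3 were compared with those bound to Aub in aubRK ovaries, transposon by transposon and strand by strand. Both immunoprecipitation libraries, 2 of the 12 in the series, were taken whole, and each of the 126 transposons was kept where both had 50 or more of its read copies, which left 123. BS4, with 86 read copies in Ago3, Helitron with 97, and Penelope with 4 were left out, because Aub had 0 of each. The members just inside the minimum were Bari2 (305 in Ago3 and 140 in Aub), P-element (306 and 463), and transib4 (885 and 424). For each transposon the sense share, the percentage of its read copies in the orientation of the transposon's own transcript, was calculated in each library, and the Ago3 value minus the Aub value is called the sense excess of Ago3.

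The aubRK females lacked endogenous Aub (the heteroallelic null background aub QC42/HN2) and carried a UAS transgene encoding 3xHA-tagged Aub, in which the N-terminal arginines that receive symmetric dimethylation were replaced by lysines. aubWT females carried the same null background with the wild-type tagged transgene. In both genotypes nos-Gal4 drove the transgene in germline cells only, so tagged Aub was the only Aub and its level was set by the driver. Further pairs of Ago3 and Aub libraries came from w1118 and from csulRM50, a loss-of-function mutant of the arginine methyltransferase Csul (PRMT5), and y w (y1 w1) provided an Ago3 library without an Aub partner. All libraries came from ovaries of females 2 to 5 days old. Each had 1 library per genotype, except Piwi in aubRK with 2, so intervals below cover counting error only, no test between genotypes was possible, and no p-value is given.

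Ago3, Aub, and Piwi are the PIWI proteins of the fly ovary. In the ping-pong cycle, Aub loaded with an antisense piRNA cleaves a transposon transcript, and the product becomes a sense piRNA in Ago3, which in turn cleaves antisense piRNA precursors. The cycle runs in the nuage around the nuclei of germline cells, where Tudor-domain proteins such as Krimp bring Aub and Ago3 together, and a sense excess in Ago3 is one of its marks. The follicle cells of the soma lack Ago3 and Aub and load mainly antisense piRNAs into Piwi, a nuclear protein that both germline and somatic cells express.

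The libraries held between 1338017 and 47217032 read copies on transposons. Ago3 aubRK held 17211640 and Aub aubRK held 15076254. Counting identical reads once left 2799829 entries for Ago3 and 538179 for Aub, or 6.15 and 28.0 read copies per entry. Neither library carried a random barcode, so read copies include PCR duplicates, and the Aub values of rare transposons rest on few distinct sequences (8 transposons had fewer than 50 Aub entries). In the aubWT pair, Ago3 had an 8-nt barcode and Aub had none, so that adaptor and protein cannot be told apart there. The w1118 and csulRM50 libraries had no barcode and came from another protocol with other antibodies.

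In aubRK, Ago3 held fewer sense piRNAs than Aub. Over all transposons, the sense share was 31.1% in Ago3 (Wilson 95% interval 31.07 to 31.11) and 36.5% in Aub (36.47 to 36.52), a difference of -5.41 percentage points (Newcombe 95% interval -5.44 to -5.37). In aubWT, 56.2% of Ago3 and 29.8% of Aub piRNAs were sense, an excess of 26.3 points. The excess was 20.3 points in w1118 (41.9% and 21.6%) and 15.5 points in csulRM50 (47.0% and 31.5%). Ago3 from y w, which had no barcode, was 48.1% sense, 18.2 points above Aub from aubWT. The aubRK pair was thus the only one of these with less sense in Ago3 than in Aub. The sign of the pooled aubRK value rested on the soma dominant and intermediate classes described below, as it was 0.54 points once these were left out and 3.81 points over the germline dominant class alone.

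Single transposons showed the same lack of an excess. The median difference over the 123 was -3.13 points in aubRK, against 7.71 in aubWT, 22.1 in w1118, and 13.0 in csulRM50. Ago3 had the lower sense share for 82 transposons and the higher for 41. A difference was called where it was at least 10 points and its 95% interval excluded 0. By this rule, Ago3 was above Aub for 11 of 123 transposons (8.94%) and below for 38 (30.9%) in aubRK. The corresponding numbers were 55 (44.7%) and 18 (14.6%) in aubWT, 88 of 121 (72.7%) and 7 (5.79%) in w1118, and 68 of 121 (56.2%) and 7 (5.79%) in csulRM50.

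The sense shares of Ago3 and Aub ran closely together across transposons in aubRK (Spearman correlation 0.816, Pearson 0.804, n = 123 transposons). In aubWT they did so much less (0.348 and 0.418). The points share their libraries and their consensus sequences, and transposons are not replicates. In w1118 and csulRM50 the Spearman correlations were 0.730 and 0.799 while the excess was present, so that a high correlation was not particular to aubRK.

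**Figure D1:**
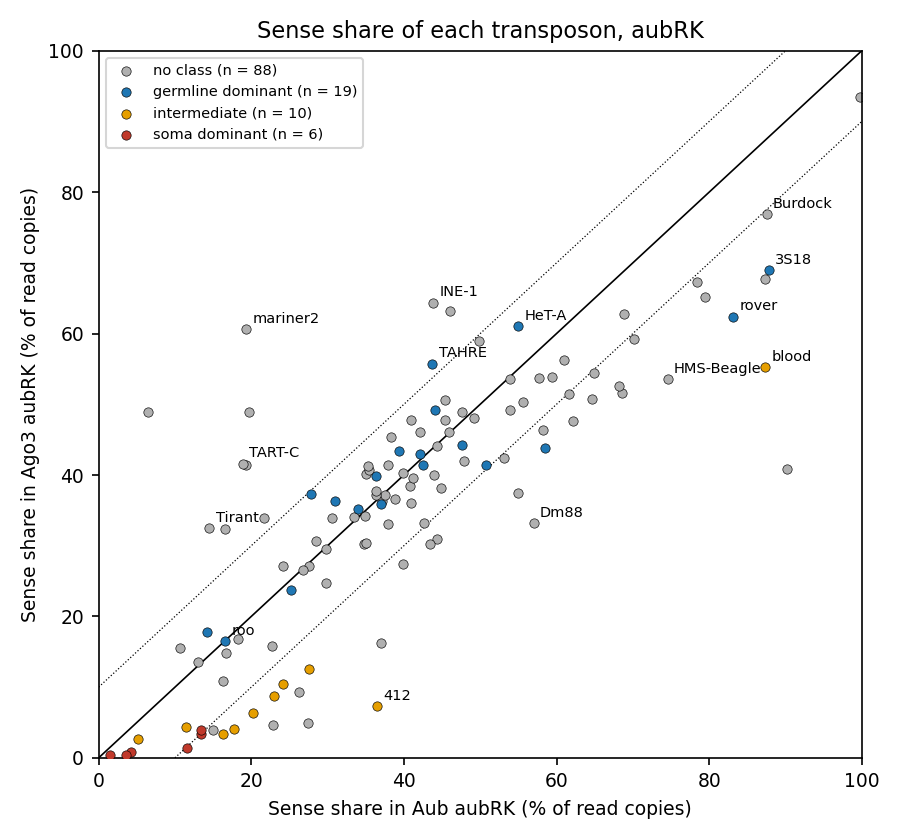
Sense share of each of the 123 transposons in Aub aubRK (x axis, % of read copies) and in Ago3 aubRK (y axis, % of read copies), coloured by class. The solid line marks equal shares and the dotted lines 10 points to either side. Most germline dominant transposons lie near equality, whereas the intermediate and soma dominant ones lie below it.

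The deposited files place 19 transposons in a germline dominant class, 10 in an intermediate class, and 6 in a soma dominant class by the cells that make their piRNAs, and leave 91 without a class. Among the 19 germline dominant transposons, 1 was above, 15 were within the limit, and 3 were below. Their median difference was 0.79 points (range -20.7 to 12.0), against 28.9 in aubWT, 29.7 in w1118, and 19.9 in csulRM50. All 10 intermediate transposons had less sense in Ago3 and 8 were below (median -13.8, range -32.1 to -2.46), against medians of 9.30, 20.4, and 23.1 in the other genotypes. All 6 soma dominant transposons also had less sense in Ago3, and 2 were below (median -6.51, range -10.1 to -1.15), against -5.62, 25.3, and 13.8. The median Aub share in aubRK was 7.89% for this class and 21.6% for the intermediate one, which bounds how far Ago3 can lie below. A deficit of 10 points was not possible for gypsy10, gypsy5, and Tabor, nor for the intermediate mdg1, because their Aub shares were under 10%. Of the 88 unclassed transposons compared, 10 were above and 25 below (median -2.26, range -49.5 to 42.4), against 7.16, 20.3, and 10.1.

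**Figure D2:**
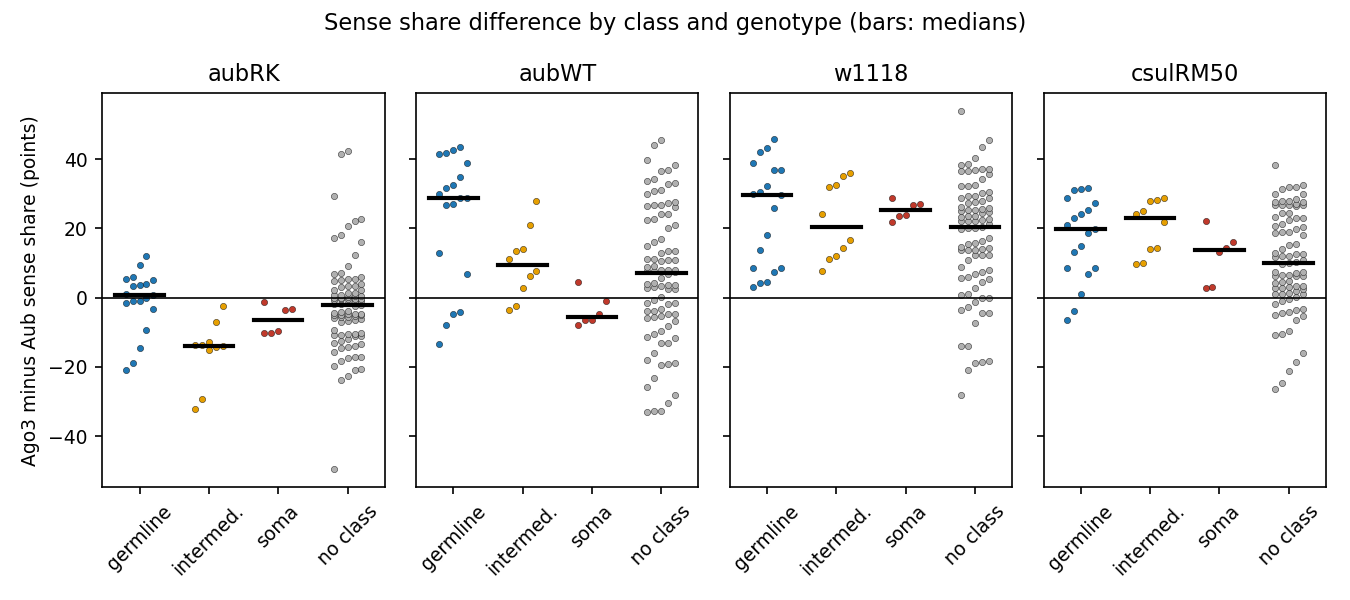
Ago3 minus Aub sense share (y axis, percentage points) of each transposon, by class (x axis) in aubRK, aubWT, w1118, and csulRM50. Points are transposons and bars are medians. The germline dominant median is 0.79 points in aubRK and lies between 19.9 and 29.7 in the other genotypes, and the intermediate median is -13.8 in aubRK.

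The most abundant transposons were of nearly equal orientation in both proteins. roo, a long terminal repeat (LTR) retrotransposon and the most abundant element, was 16.5% sense in Ago3 aubRK (of 1509246 read copies) and 16.6% in Aub aubRK (of 1886511), a difference of -0.04 points (-0.12 to 0.04). In aubWT its shares were 39.3% and 10.4%. Thus the Ago3 share of roo was lower and its Aub share higher in aubRK. The LTR element 297 was 17.8% sense in Ago3 and 14.3% in Aub, 3.54 points apart, against 54.1% and 11.4% in aubWT. The non-LTR retrotransposon F-element was 36.3% and 30.9% sense, 5.39 points apart, against 68.7% and 27.2%. R1A1-element, which inserts into ribosomal RNA genes, had 34.2% and 34.9% in aubRK and 45.5% and 28.7% in aubWT. GATE, an LTR element, retained an excess of 3.91 points, against 26.9. All 5 therefore had an excess over 10 points in aubWT, and none had one in aubRK. In w1118 and csulRM50, F-element had such an excess, whereas roo, 297, R1A1-element, and GATE did not. With Ago3 from y w set against Aub from aubWT, roo and 297 had none either.

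Elements of the telomeres were among those with a remaining excess. HeT-A, TAHRE, and the TART elements are non-LTR retrotransposons that maintain chromosome ends and are active in the germline. TAHRE (FBgn0069343) was 55.7% sense in Ago3 (of 115012 read copies) and 43.7% in Aub (of 98389), an excess of 12.0 points (11.6 to 12.4), compared with 83.7% and 51.2% in aubWT. With identical reads counted once its excess in aubRK was 3.23 points. TART-C had 41.6% in Ago3 and 18.9% in Aub, an excess of 22.7 points, against 71.4% and 47.2%. TART-C, whose excess changed least among the telomeric elements, had 276 Aub entries. With identical reads counted once, the excess of TART-C was 31.2 points in aubWT and 16.9 in aubRK. HeT-A had 61.0% and 55.0%, 6.06 points apart, against 34.8 points in aubWT, and the excess of TART-A was 3.37 points, against 45.5. TART-B differed by -1.08 points, an interval that included 0 (-2.31 to 0.15). The median of the 5 telomeric elements was 6.06 points in aubRK and 32.5 in aubWT.

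LTR retrotransposons, which copy themselves through a reverse-transcribed transcript with terminal repeats, held most of the transposons with a sense deficit. Of 59 compared, 3 were above and 29 below, and 50 had a negative difference (median -9.56). Of 37 non-LTR elements, 3 were above and 5 below (median 0.12), and of 22 DNA transposons, 4 were above and 3 below (median -0.37). The LTR elements below were not only those of the intermediate and soma dominant classes, as 16 of the 34 unclassed and 3 of the 9 germline dominant LTR elements were among them. Of the 3 elements that insert into ribosomal RNA genes, R1-2 was below (-10.6 points) while R2-element (-1.89) and R1A1-element (-0.67) were not.

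The largest deficit among well-covered transposons was that of blood (FBgn0000199), an LTR retrotransposon of the intermediate class. It was 55.3% sense in Ago3 aubRK (of 544930 read copies) and 87.4% in Aub aubRK (of 530302), a difference of -32.1 points (-32.2 to -31.9). In aubWT, the shares were 59.6% and 31.7%. Ago3 thus differed little between aubWT and aubRK for blood, whereas most blood piRNAs in Aub were antisense in aubWT and sense in aubRK. The Ago3 and Aub shares of blood were 9.29% and 1.47% in w1118, and 47.8% and 19.6% in csulRM50. In Piwi, the sense share of blood was 8.73% in aubWT and 49.3% and 30.8% in the aubRK libraries. A higher sense share of blood in aubRK than in aubWT was thus not particular to Aub. In CPM (read copies scaled to a library total of 1000000 on transposons), Aub aubRK held 30734 sense and 4441 antisense, and Ago3 held 17508 and 14153. With identical reads counted once, the difference was -28.9 points.

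412 (FBgn0000006), the next in size and also of the intermediate class, differed in the other component. It was 7.27% sense in Ago3 (of 521362 read copies) and 36.5% in Aub (of 133280), a difference of -29.3 points (-29.5 to -29.0). Its aubWT shares were 39.2% and 32.9%, so that the Aub share was similar and the Ago3 share was lower in aubRK. Sense 412 piRNAs were at 2201 CPM in Ago3 and 3229 in Aub, whereas antisense ones were at 28090.2 and 5611.

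Further elements by the size of their deficit were mostly LTR retrotransposons. Dm88 was 33.2% sense in Ago3 and 57.0% in Aub, and Stalker3T was 4.90% and 27.4%. HMS-Beagle had 53.6% and 74.6%, rover had 62.4% and 83.1%, and gypsy6 had 16.3% and 37.0%. Tc3, a DNA transposon, had 67.7% and 87.3%. For HMS-Beagle, rover, and Tc3 Ago3 was already more than 10 points under Aub in aubWT (-11.6, -13.4, and -28.1 points), whereas Dm88, Stalker3T, and gypsy6 differed there by -3.99, 7.78, and 4.22. G7, a rare non-LTR element chosen after its values were seen, had the lowest difference (40.8% and 90.2%), from 456 and 789 read copies and only 27 Aub entries.

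**Figure D3:**
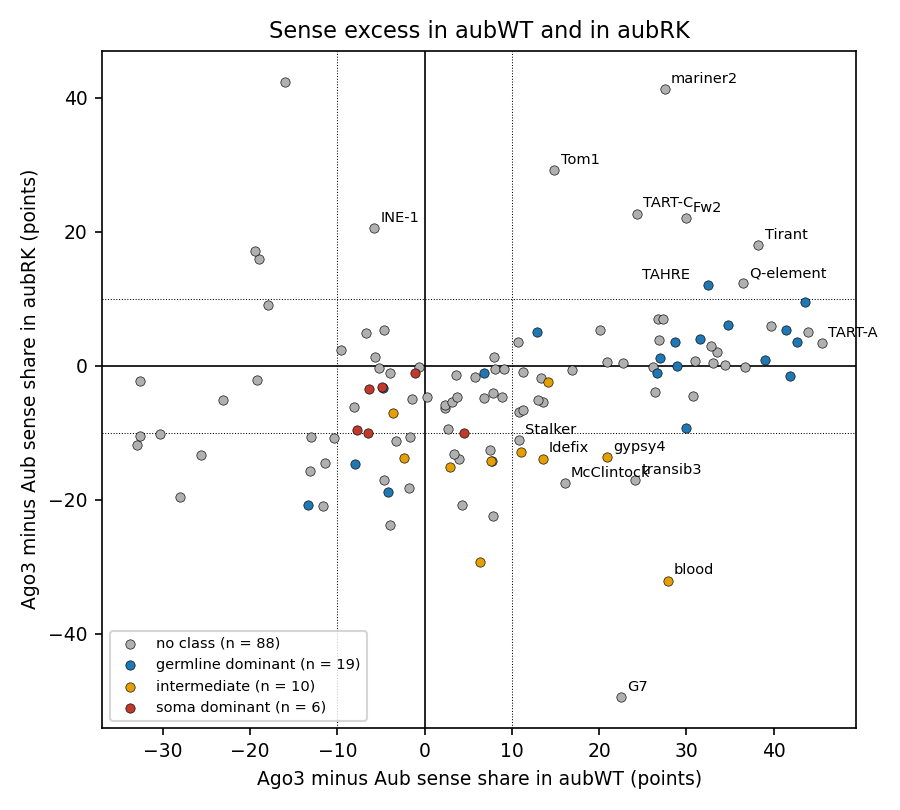
Sense excess of Ago3 over Aub (percentage points) in aubWT (x axis) and in aubRK (y axis) for 123 transposons, coloured by class. Dotted lines mark 10 points. Of the 55 transposons to the right of the 10-point line, 7 were above it in aubRK, 40 fell between the lines, and 8 fell below -10 points.

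Of the 55 transposons with an excess in aubWT, 7 kept one in aubRK and 48 did not, among them 8 for which it was reversed. Over the 55, the median difference was 27.0 points in aubWT and 0.63 in aubRK. The median sense share was 59.5% in Ago3 aubWT and 37.3% in Ago3 aubRK, but 30.8% and 34.0% in Aub. The Ago3 share was lower in aubRK for 52 of the 55 (median change -24.1 points), and the Aub share was higher for 38 (median change 2.86 points). These 55 were chosen by the aubWT values, so a smaller excess in other libraries is partly given by that choice, and the counts are a description. The libraries of the aubWT pair differ in adaptor. With Ago3 from y w, which like Aub aubWT had no barcode, 57 transposons had an excess, of which 9 kept it and 48 did not, 6 of them reversed. Of the 88 with an excess in w1118, 5 kept it, and of the 68 in csulRM50, 3 did.

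By class, the excess was lost in 13 of 14 germline dominant transposons, all of which came within 10 points of Aub. It was lost in 5 of 5 intermediate transposons, of which 4 were reversed (Idefix, Stalker2, blood, and gypsy4). mdg1 had an Aub share of 5.12% in aubRK, too low for a reversal by this rule. No soma dominant transposon had an excess in aubWT. Of 36 unclassed transposons, 6 kept it, 26 came within the limit, and 4 were reversed (G7, McClintock, Stalker, and transib3). With Ago3 from y w in place of Ago3 aubWT, 2 intermediate transposons had an excess, and only blood was reversed. Idefix (7.67 points), gypsy4 (9.52), Stalker2 (-6.23), and Stalker (-8.25) then had no excess to lose.

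The 7 transposons that kept the excess were TAHRE, TART-C, Fw2, Tirant, Q-element, mariner2, and Tom1. mariner2 (FBgn0063401), a DNA transposon of the Tc1/mariner group, had the largest, with 60.7% sense of 1230 read copies in Ago3 and 19.3% of 2663 in Aub (41.3 points, 38.1 to 44.4). It had only 58 Aub entries, and the excess was 13.9 points with identical reads counted once. Fw2, a non-LTR element, was 41.4% and 19.3% sense, with 95 Aub entries. Tirant, an LTR element known from follicle cells, was 32.5% and 14.5% sense, with 52. Q-element rested on 2443 Aub entries and was 34.0% and 21.7% sense. Tom1, from 817 and 425 read copies and 21 Aub entries, was 49.0% and 19.8% sense. With identical reads counted once, 4 transposons kept an excess, namely Fw2, Q-element, TART-C, and Tirant.

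An excess was seen in aubRK but not in aubWT for 4 transposons. INE-1, a short nonautonomous element with many genomic copies, was 64.4% sense in Ago3 (of 19005 read copies) and 43.8% in Aub (of 31235), a difference of 20.5 points, against -5.76 in aubWT. With Ago3 from y w in place of Ago3 aubWT, its reference difference was 13.0 points. The other three, frogger (63.2% and 46.1%), Bari2 (48.9% and 6.43%), and transib4 (32.4% and 16.5%), had between 9 and 35 Aub entries. The difference also moved upward for transib1 (-18.0 to 9.11 points), diver2 (-32.6 to -10.5), and aurora-element (-33.0 to -11.9). Downward, 17.6 moved from 41.9 to -1.47 and G6 from 29.9 to -9.26. Of the 18 transposons below in aubWT, 11 were also below in aubRK.

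The abundance of each transposon was compared per total read copies on transposons. These ratios compare a transposon with itself between libraries, since counts were not divided by consensus length. The median ratio of Ago3 to Aub was 0.29 on the log2 scale, and 26 of 123 transposons (21.1%) were over 2-fold higher in Ago3 and 3 (2.44%) over 2-fold lower. With DESeq2 size factors, which set that median to 0.00, the numbers were 21 and 12, and with TMM scaling they were 26 and 6. The side on which a transposon's ratio falls therefore depends on the scaling for small ratios. By orientation, 12 (9.76%) were higher and 3 (2.44%) lower in sense piRNAs, whereas 37 (30.1%) were higher and 5 (4.07%) lower in antisense piRNAs. Of the 88 unclassed transposons, 11 were over 2-fold higher in both orientations together and 19 in antisense piRNAs (median antisense ratio 1.33). High antisense ratios were thus not confined to the soma dominant and intermediate classes.

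All 6 soma dominant transposons were more abundant in Ago3 than in Aub in aubRK, under all 3 scalings. They are LTR retrotransposons that include gypsy and ZAM, known from follicle cells. gypsy10 was at 12643 CPM in Ago3 and 1392 in Aub, a ratio of 9.08. Ratios of gypsy5, gtwin, gypsy, Tabor, and ZAM were 8.03, 7.91, 7.79, 7.48, and 6.21. The class made up 4.77% of Ago3 and 0.60% of Aub read copies in aubRK, against 0.48% and 0.31% in aubWT. It was 2.11% of Ago3 in y w, 0.26% in w1118, and 0.70% in csulRM50. In bulk ovaries, the number of cells that hold these piRNAs and the amount in each cell cannot be told apart.

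The difference lay mainly in the antisense orientation. For the 6 soma dominant transposons, the antisense ratio of Ago3 to Aub was 6.93 to 9.41, while the sense ratio was 0.91 to 2.24. Of gypsy, 3.87% of 96891 read copies were sense in Ago3 and 13.4% of 10900 in Aub. ZAM had 3.33% and 13.4%, and gtwin 1.43% and 11.5%. gypsy10 had 0.80% and 4.26%, gypsy5 0.40% and 3.53%, and Tabor 0.35% and 1.50%. These were thus almost wholly antisense in Ago3.

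The 10 intermediate transposons showed the same orientation pattern at a smaller size. Their class made up 16.0% of Ago3 and 7.44% of Aub read copies in aubRK, against 3.50% and 4.94% in aubWT, and was 11.6% of Ago3 in y w. Antisense piRNAs of 10 of 10 were over 2-fold higher in Ago3 (median ratio 3.60), while the median sense ratio was 1.06. Over the class, antisense was at 134558 CPM in Ago3 and 35464 in Aub, and sense at 25499 and 38963. The pooled sense share was 15.9% in Ago3 and 52.4% in Aub, but without blood it was 6.22% and 21.0%, so that much of the pooled gap came from blood. Of the other members, gypsy3 had the highest ratio (7.49) and was 4.35% and 11.4% sense, followed by gypsy2 (7.44, with 4.03% and 17.8%) and Stalker2 (4.33, with 3.38% and 16.3%). Idefix was 6.40% and 20.2% sense, Stalker4 8.80% and 23.0%, Quasimodo 12.5% and 27.6%, gypsy4 10.5% and 24.2%, and mdg1 2.66% and 5.12%. Ratios of these 5 lay between 2.35 and 3.35, and blood alone was not over 2-fold higher in Ago3 (0.90). With DESeq2 size factors, 8 of the 10 remained over 2-fold.

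**Figure D4:**
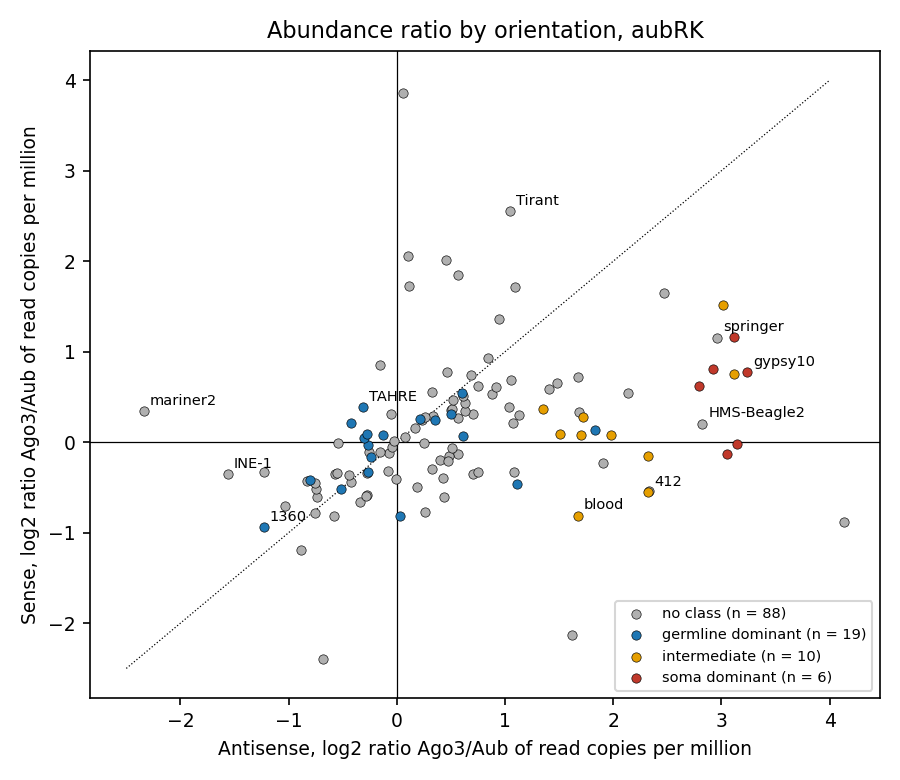
Ratio of Ago3 to Aub aubRK CPM (log2) for antisense (x axis) and sense (y axis) piRNAs of 123 transposons, coloured by class. The dotted line marks equal ratios. Soma dominant and intermediate transposons lie to the right, with antisense ratios of at least 2.54-fold, as do some unclassed ones. Sense ratios of the soma dominant transposons lie between 0.91- and 2.24-fold, and those of the intermediate ones between 0.57- and 2.85-fold.

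The transposons lower in Ago3 were 1360, mariner2, and Tc3, all DNA transposons. 1360, a germline dominant element, was at 29904 CPM in Ago3 and 63801 in Aub, a ratio of 0.47, with 49.2% and 44.1% sense. Ratios of mariner2 and Tc3 were 0.40 and 0.24, and Tc3 had only 654 read copies in Ago3 and 2343 in Aub. NOF and Q-element followed at 0.51 each. With identical reads counted once and at least 50 entries in both libraries, 0 transposons were over 2-fold lower. In distinct sequences 1360 and mariner2 thus did not pass the 2-fold limit, to which 1360 was already close in read copies. Missing the limit does not show that their ratios were equal. Tc3, with 46 Aub entries, was under that minimum and could not be called.

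Libraries of Piwi from aubRK, the only condition with a second library, gave a measure of the spread between libraries. Their sense shares were 26.5% and 24.7% (25.6% ± 1.28, SD, n = 2). Over the 118 transposons that reached 50 read copies in each, the median absolute difference between the Piwi libraries was 2.44 points, and 17 differed by 10 points or more. Between Ago3 and Aub the median absolute difference was 6.06 points over 123, and 49 differed by 10 points or more. The Ago3 to Aub difference was larger than that of the Piwi pair for 83 of 118 transposons. The Piwi libraries also differ in adaptor and in depth, with 47217032 and 1338017 read copies.

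In aubRK the sense share of Ago3 was nearer to that of Piwi than to that of Aub for 81 of 118 transposons, and for 74 or 86 against the second or the first Piwi library alone. The median absolute distance was 2.65 points from Ago3 to Piwi, 5.69 from Ago3 to Aub, and 7.79 from Aub to Piwi. Ago3 was nearer to Piwi for 10 of 10 intermediate, 6 of 6 soma dominant, and 12 of 19 germline dominant transposons. By order, it was so for 45 of 57 LTR, 25 of 37 non-LTR, and 9 of 19 DNA elements. gypsy was 2.79% and 3.07% sense in the Piwi libraries, beside 3.87% in Ago3 and 13.4% in Aub. 412 was 5.63% and 4.13% sense in Piwi, beside 7.27% and 36.5%. blood was 49.3% and 30.8% sense in Piwi, so that for blood the Piwi libraries themselves stood far apart.

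The soma dominant class was 5.95% and 6.15% of the Piwi aubRK libraries and 4.93% of Piwi aubWT, beside 4.77% of Ago3 aubRK and 0.60% of Aub aubRK. The intermediate class was 19.3% and 19.5% of Piwi aubRK, beside 16.0% and 7.44%. Ago3 aubRK therefore lay near Piwi in the share of both classes as well as in their orientation. Whether the piRNAs of these classes were bound to Ago3 itself was not tested.

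**Figure D5:**
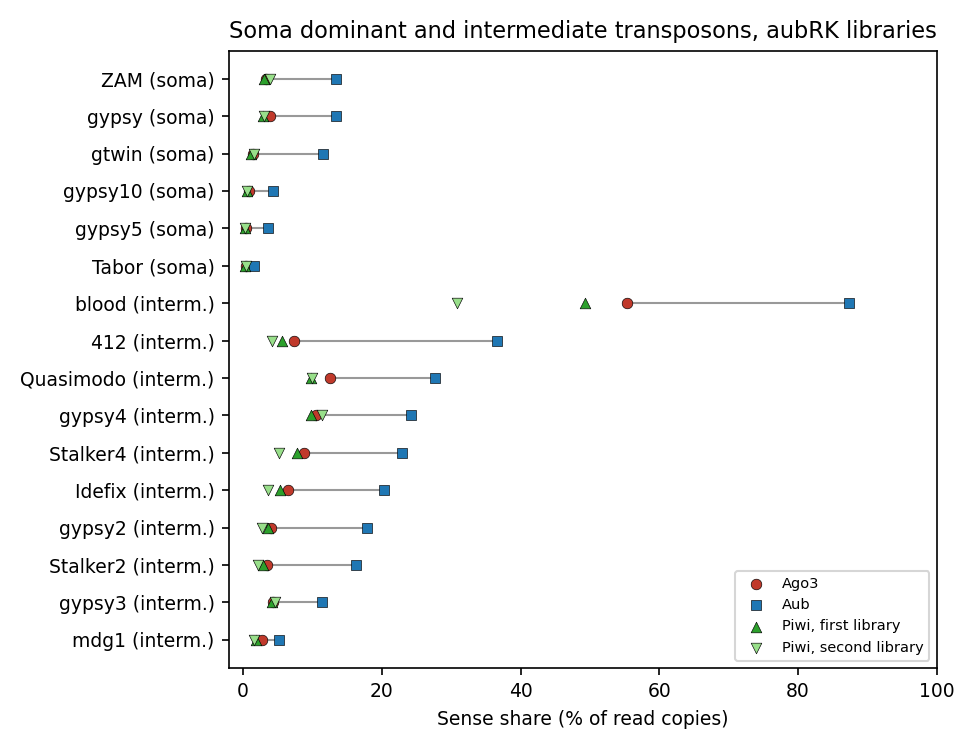
Sense share (x axis, % of read copies) of the 6 soma dominant and 10 intermediate transposons (y axis) in the aubRK libraries of Ago3, Aub, and Piwi (both libraries). For each transposon Aub has the highest share, and Ago3 lies near Piwi except for blood, for which the Piwi libraries stand apart. For 412 the shares are 7.27% in Ago3, 36.5% in Aub, and 5.63% and 4.13% in Piwi.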

How the data were processed

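Small RNAs from immunoprecipitates of ovaries were trimmed by the authors with Cutadapt 2.3 and aligned end to end with STAR 2.4.2a (versions per the submitters' processing notes) to FlyBase consensus transposons, set 9.42. A read with equally good matches on more than 1 consensus may be counted more than 1 time. The authors deposited whole-number counts per transposon and orientation, not normalized, in 2 forms: read copies, used here, and entries, in which a read sequence counts a single time. What they hold was read from the column names and values. 3 libraries with a barcode had been collapsed.

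Shares, Wilson and Newcombe 95% intervals, and ratios per library total on transposons were computed with Python 3.11.15 and pandas 2.3.3. A floor of 3 read copies corresponded to 1.74e-05% in Ago3 aubRK and 1.99e-05% in Aub aubRK. The counting interval of a difference had a median of 0.66 points to either side (at most 7.03, for Bari2). Intervals assume independent reads, which PCR copies are not. Orders came from lists written from general knowledge; 7 names were left without an order.

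Named transposons were the 5 with most read copies; with at least 500 read copies in both libraries, the 8 largest positive and 8 largest negative differences and the 5 largest and 5 smallest ratios; the 5 largest rises and 5 largest falls from aubWT; all soma dominant and intermediate members; and those next to the minimum. HeT-A, TART-B, R1-2, R2-element, Tom1, G7, McClintock, Stalker, and transib3 were named after their values were seen. The comparison, members, and lists were chosen with earlier results of these data known. Alternatives were entries, other minimums, limits, references, and scalings (edgeR 4.0.16 TMM and DESeq2 1.42.0 size factors in R 4.3.3), 1 orientation, a pseudocount of 10 CPM, and leaving out transposons or a Piwi library. A minimum of 50 entries, leaving out blood, and leaving out the soma dominant and intermediate classes were added after seeing the data. The computation was tested on simulated data.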

Additional observations from a re-analysis of the deposited data

Results flagged for a closer look

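Several sense differences between Ago3 and Aub had opposite signs in aubWT and aubRK. Pooled over all transposons, the difference was 26.3 points in aubWT and -5.41 in aubRK. Among single transposons with at least 10 points in each genotype it was 27.9 and -32.1 for blood, 21.0 and -13.7 for gypsy4, 13.5 and -13.9 for Idefix, and 11.0 and -12.9 for Stalker2, all of the intermediate class. Among unclassed LTR elements it was 16.0 and -17.5 for McClintock and 10.8 and -11.1 for Stalker. It was 22.5 and -49.5 for G7, which had 27 Aub entries in aubRK. For transib3, which had 59, it was 24.1 and -17.0, and 2.42 points in aubRK with identical reads counted once. Counted that way, Stalker had 8.45 points in aubWT and -8.82 in aubRK, under the limit in both. With Ago3 from y w in place of Ago3 aubWT, the reference difference was already negative for Stalker (-8.25) and Stalker2 (-6.23). It was positive for transib3 (32.6), blood (18.9), G7 (17.0), McClintock (10.3), gypsy4 (9.52), and Idefix (7.67). The difference between the genotypes was not tested, because each pair is 1 library of each protein.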

How the results depend on the processing

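Main results were recomputed under 110 alternatives, of which 59 left the value the same within counting error or 1.5 times. With identical reads counted once, the pooled sense shares were 34.5% in Ago3 and 39.3% in Aub (difference -4.81 points), the median difference 1.78 points for germline dominant and -11.1 for intermediate transposons, and the Spearman correlation 0.881. Then 5 transposons were above Aub, 4 kept the aubWT excess, and 0 were over 2-fold lower. For these counts the minimum of 50 was applied to entries, so that transposons with fewer were left out. The classes then made up 38.9% of Ago3 and 49.7% of Aub with 38.9% and 34.9% sense (germline dominant), 14.9% and 8.46% with 19.2% and 50.7% sense (intermediate), and 4.50% and 0.79% with 2.32% and 7.66% sense (soma dominant). Of single transposons, 17.6 then had 1.22 points and roo 1.78, with the sign turned.

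The pooled shares of Ago3 and Aub were 35.2% and 31.4% (3.81 points, the sign turned) over the germline dominant class, 32.5% and 39.4% (-6.86) without roo, and 31.9% and 42.9% (-11.0) without the 5 most abundant transposons. They were 30.3% and 34.6% (-4.34) without blood, and 35.9% and 35.4% (0.54, the sign turned) without the soma dominant and intermediate classes.

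With a limit of 5 points, 22 transposons were above Aub, 16 kept the excess, and 18 were reversed. With 20 points, 6 were above and 8 below, 3 kept the excess, and 2 were reversed. With a minimum of 50 entries, 7 were above. With w1118 as the reference, 88 had an excess, 83 lost it, and 29 were reversed. Over 2-fold, 12 were higher for sense alone and 5 lower for antisense alone, and 6 (TMM) or 12 (DESeq2 size factors) were lower. The Ago3 share was nearer to Piwi for 74 to 86 transposons when a Piwi library was left out. No paired analysis was possible because each condition but 1 had a single library. Depth limited rare transposons: 8 had fewer than 50 Aub entries.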
